A study of Mus musculus with 34 samples.

Results

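Broad H3K4me3 domains are long stretches of chromatin at gene starts that carry histone H3 trimethylated at lysine 4. A total of 691 such domains were found in villus cells of the mouse small intestine, among 14071 regions of 300 bp or longer with raised H3K4me3. The domains were selected on the signal itself. The 4 deposited tracks were averaged with equal weight in bins of 100 bp, bins at 10 or more times the genome-wide mean were joined over gaps of up to 500 bp, and regions of 3000 bp or longer that held the 5' end of a protein-coding gene were kept. They held the 5' ends of 812 genes, 3.70% of the 21938 protein-coding genes on 21 chromosomes. Another 6940 regions of 300 to 2900 bp, called narrower regions here, held 7952 gene ends (36.2%), and 189 long regions held none.

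H3K4me3 is laid down at gene starts by the Set1 and MLL families of methyltransferases and is read by factors that help transcription to begin. At most active genes the mark covers a few nucleosomes around the start, and in many tissues the longest stretches lie over genes that specify the cell type. The villus of the small intestine is covered mainly by enterocytes, absorptive cells that arise from dividing crypt cells and keep their identity through factors such as Cdx2, Gata4 and Gata6.

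The libraries were made by CUT&RUN, in which an antibody to H3K4me3 tethers micrococcal nuclease to chromatin and the released fragments are sequenced. There were 2 libraries of wild-type mice and 2 of ApcMin/+ mice, which carry 1 mutant copy of Apc, a suppressor of Wnt signalling, in every cell and later form intestinal tumours. All mice were C57BL/6J and 5 weeks old by the sample labels, while the design text extends the age to 6 weeks. The cells were scraped from normal-appearing intestine and were not sorted, so a smaller share of marked cells and less mark per cell cannot be told apart. The tracks rested on 1430000 and 4790000 tags (1 tag being 1 fragment) in wild-type libraries 1 and 2, and on 3700000 and 5470000 in ApcMin/+ libraries 1 and 2. Values are coverage scaled by the authors to equal depth, on which the genome-wide mean was 0.366 and the threshold 3.66.

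Library ApcMin/+ 1 stood apart from the others. It was the highest of the 4 at 687 of the 691 domains and held a median of 58.1% of the signal summed over the libraries. At 6764 of the 6940 narrower regions it was also the highest, with a median of 52.9% of the summed signal. The call therefore leans on it, and without its track 287 domains were called, of which 280 (97.6%) overlapped the 691 and covered 40.5% of them. In wild-type library 1 the height of 1 fragment was 1.22 times the threshold, so single fragments could pass it there, against 0.322 to 0.432 times in the others. The comparisons of genotypes and the counts of the gene lists are given below without it as well.

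The sequence at the 5' end is shown for 4 genes that span the range of widths, from 250 bp before the end to 49 bp after it, in mm10 and on the strand of the gene. CpG dinucleotides, which are dense in most promoters and are bound by CXXC domains of the methyltransferase complexes, are in capitals. Tnrc18 held the widest domain, and Cdx2 the widest of the intestinal transcription factors after Gata6. Junb held the widest of the immediate early genes, whereas Epcam had the narrowest region among the enterocyte genes examined.
Tnrc18, chr5:142817613-142817912, minus strand: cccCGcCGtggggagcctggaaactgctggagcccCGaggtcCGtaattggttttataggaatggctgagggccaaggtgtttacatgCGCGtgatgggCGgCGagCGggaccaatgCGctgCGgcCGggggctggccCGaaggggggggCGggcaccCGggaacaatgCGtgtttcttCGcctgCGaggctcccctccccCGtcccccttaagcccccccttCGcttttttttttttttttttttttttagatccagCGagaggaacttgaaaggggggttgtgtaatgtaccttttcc
Cdx2, chr5:147307221-147307520, minus strand: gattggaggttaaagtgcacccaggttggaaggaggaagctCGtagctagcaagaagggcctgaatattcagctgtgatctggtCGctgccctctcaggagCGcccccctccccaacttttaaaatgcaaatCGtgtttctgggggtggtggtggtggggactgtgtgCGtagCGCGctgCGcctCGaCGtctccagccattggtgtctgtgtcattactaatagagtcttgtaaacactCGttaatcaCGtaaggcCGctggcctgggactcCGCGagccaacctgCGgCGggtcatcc
Junb, chr8:84978669-84978968, minus strand: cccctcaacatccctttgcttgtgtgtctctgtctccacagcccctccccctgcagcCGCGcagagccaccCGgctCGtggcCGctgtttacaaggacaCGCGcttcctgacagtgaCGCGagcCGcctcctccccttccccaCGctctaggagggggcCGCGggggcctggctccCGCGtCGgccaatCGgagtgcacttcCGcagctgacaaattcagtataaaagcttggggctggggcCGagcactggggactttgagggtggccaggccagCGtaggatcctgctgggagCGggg
Epcam, chr17:87635729-87636028, plus strand: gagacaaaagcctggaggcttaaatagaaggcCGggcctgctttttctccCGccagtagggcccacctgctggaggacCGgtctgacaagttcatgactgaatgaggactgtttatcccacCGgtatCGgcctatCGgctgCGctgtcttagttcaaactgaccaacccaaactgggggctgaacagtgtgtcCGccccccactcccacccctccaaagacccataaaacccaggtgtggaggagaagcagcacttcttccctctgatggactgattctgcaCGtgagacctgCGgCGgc
These windows held 21, 17, 21 and 11 CpGs. The observed over expected CpG ratio was 0.804 at Tnrc18, 0.720 at Cdx2, 0.638 at Junb and 0.454 at Epcam.

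The domains were longer than the narrower regions by the rule, but mostly not higher. Their median width on the mean track was 3700 bp, with quartiles of 3300 and 4450 bp and a maximum of 11700 bp. There were 278 domains of at least 4000 bp, 97 of at least 5000 bp, 45 of at least 6000 bp, 20 of at least 7000 bp and 4 of at least 10000 bp. Mean signal hardly varied with width over the 691 domains (Spearman's rho = 0.054), which share libraries and threshold. In each of the 4 libraries the median signal of the domains was close to that of the narrower regions, at 6.46 against 6.65 in wild type 1, 3.93 against 4.35 in wild type 2, 22.1 against 19.4 in ApcMin/+ 1 and 5.31 against 6.07 in ApcMin/+ 2. The domains were below the narrower regions in 3 libraries and above them in ApcMin/+ 1.

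The extra length lay mainly inside the gene. Among the 576 domains with 1 gene end, 537 (93.2%) reached farther downstream than upstream, with a median of 2977.5 bp into the gene and 735.0 bp before it. Among 5971 narrower regions with 1 end, 87.1% did so, with medians of 905.0 and 322.0 bp. The average profile around the 5' end stayed above 50% of its maximum over 2300 and 2500 bp in wild type and over 2600 and 2700 bp in ApcMin/+. For the narrower regions these widths were 800 and 900 bp, and 1100 and 900 bp. At 2000 bp into the gene the domains kept 53.0% and 59.2% of the maximum in wild type and 66.1% and 60.7% in ApcMin/+, whereas at 2000 bp before the end they had 9.24% and 14.2%, and 6.84% and 14.3%. The longer side was thus the gene body in every library. The rule fixed the total length and not its direction. However, the 5' end was the outermost one annotated for each gene, so other starts of the gene could only lie downstream. How far this lengthened the downstream side was not tested.

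**Figure D1:**
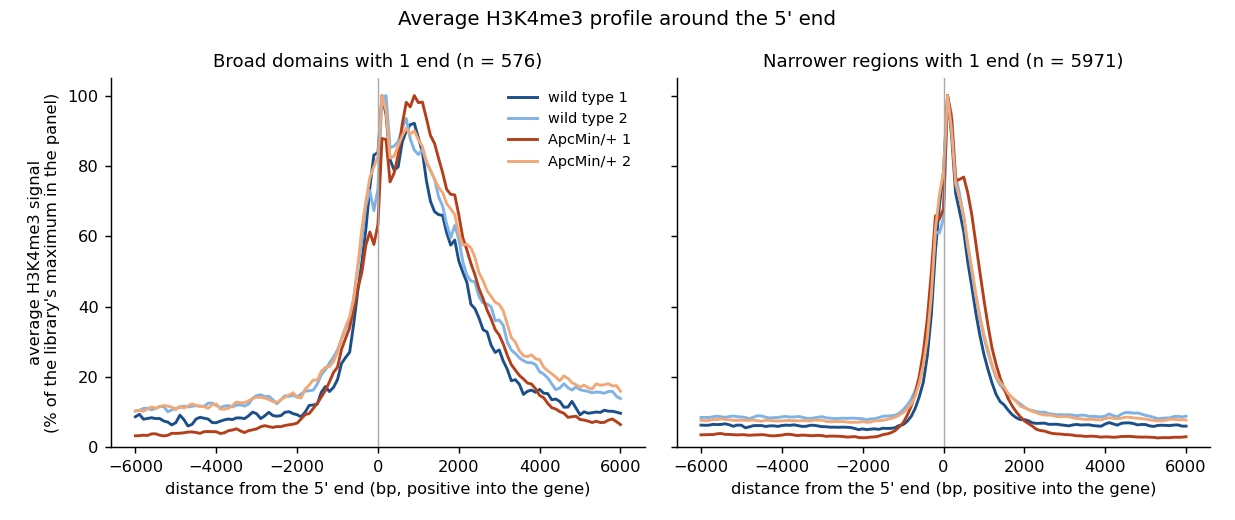
Average H3K4me3 signal by distance from the 5' end (bp) at 576 broad domains and 5971 narrower regions with 1 gene end, each library (line) as % of its own maximum in the panel. In all 4 libraries the signal of the broad domains declines slowly into the gene and steeply before it, and the narrower regions form a peak of 800 to 1100 bp at 50% of its maximum.

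**Figure D2:**
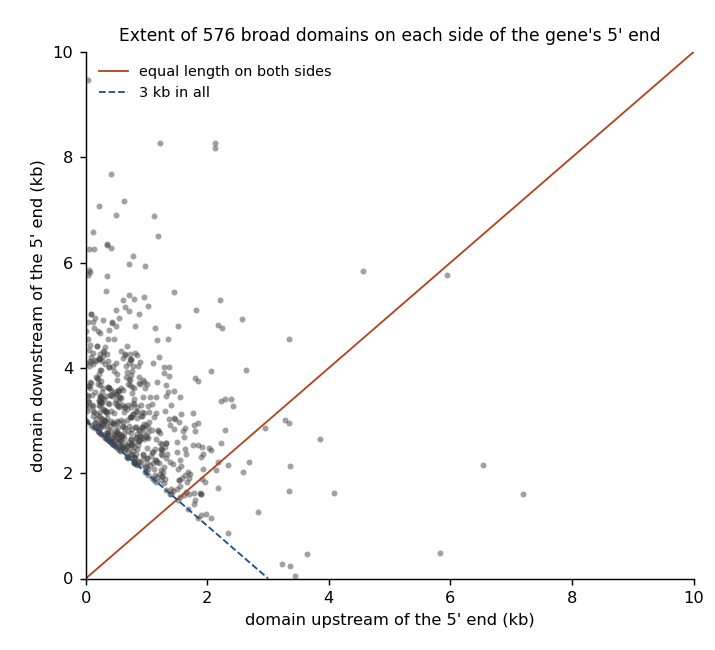
Length of each of 576 broad domains before (x axis, kb) and after (y axis, kb) the 5' end of its gene on the mean track. A total of 537 points lie above the solid line of equal lengths, and the dashed line marks the smallest total length kept.

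Some domains swallowed a whole gene. The annotated gene lay entirely within the domain at 28 of 576 domains (4.86%) and at 0.352% of narrower regions with 1 end. The domains were longer by the rule, so a whole gene fits into them more readily. Chosen after these values were seen, examples were Cdx2 (a gene of 6466 bp), the epithelial factor Elf3 (4994 bp), the immediate early gene Ier2 (1522 bp), Id1, an inhibitor of basic helix-loop-helix factors (1160 bp), and the tight junction genes Cldn3 (1259 bp) and Cldn7 (3107 bp). Gene length itself was alike, with medians of 24183.5 bp for domains and 23629.0 bp for narrower regions. Of the domains, 109 held 2 gene ends, which pointed away from each other at 64 (58.7%), as at 58.1% of narrower regions with 2 ends. Another 6 domains held 3 ends, the widest of them over Mbd6, which encodes a methyl-CpG-binding domain protein, and the stress-response factor Ddit3, for which the annotation holds 2 entries (5100 bp). It carried 7.93 and 3.45 in wild type and 21.8 and 4.49 in ApcMin/+.

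The domains were somewhat poorer in CpG than the narrower regions. In the 300 bp windows at the 5' end the median observed over expected CpG ratio was 0.744 for domains and 0.776 for narrower regions, and 66.3% against 78.1% had a ratio of at least 0.6. Over their whole length the medians were 0.538 and 0.706, and wider domains had somewhat lower ratios (rho = -0.21 over 691 domains, a description only). Introns made up a median of 57.8% of a domain and 42.7% of a narrower region, exons 20.5% and 29.3%, and sequence outside genes 15.3% and 21.9%. Longer regions take in more sequence away from the 5' end, so the whole-length ratios and these shares are not independent of the width rule. Of the 15 enterocyte products in broad domains, listed below, 14 had a ratio under 0.6, with a median of 0.353. Vil1 had 0.173, Krt20 0.316, Slc5a1 0.372, and Cdh17 0.00, since its window held no CpG. The exception was Ezr with 1.12. Of the 10 intestinal transcription factors in broad domains 6 were under 0.6, and of the 10 immediate early genes 1 was.

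Domains were spread over the chromosomes unevenly. Chromosome 11 had the most (76 domains), and chromosome 19 had the largest share of its genes in one (6.68%). The X chromosome had 8 domains over 0.949% of its genes, including Efnb1, Ddx3x and the histone demethylase gene Kdm6a, and the Y chromosome had 0.

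The 10 widest domains held genes of several kinds. The domain of Tnrc18, which encodes a nuclear protein with a bromo-adjacent homology domain, spanned chr5:142811901-142823600. In wild type 1 and 2 it carried a mean signal of 6.80 and 4.96, and in ApcMin/+ 1 and 2 of 29.2 and 5.84. ApcMin/+ 1 was high and ApcMin/+ 2 lay between the wild-type values, so the groups overlapped. Gata6, an endodermal zinc finger factor (10400 bp), had 7.13 and 4.34 in wild type and 28.6 and 6.18 in ApcMin/+. Zbtb7b, a zinc finger repressor at chr3:89386501-89396900, had 8.34 and 4.34, and 26.8 and 5.83. Again only ApcMin/+ 1 exceeded the wild-type range at both.

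The Cdx2 domain at chr5:147299101-147309400, of 10300 bp, had 6.64 and 4.41 in wild type and 26.4 and 6.33 in ApcMin/+. St3gal4, which encodes a sialyltransferase (chr9:35109801-35119300), had 3.08 and 1.65, and 27.2 and 3.77. At this domain the groups did not overlap, and ApcMin/+ 1 alone called it as a long region, over 14900 bp. The domain of Smad7, the inhibitory Smad of the TGF-beta pathway (9500 bp), had 6.51 and 4.03, and 19.3 and 5.66.

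Setd1b, itself an H3K4 methyltransferase gene (chr5:123135001-123143800), had 4.99 and 3.28 in wild type and 19.8 and 4.15 in ApcMin/+. Its domain reached 7192.0 bp upstream and 1607.0 bp downstream of the 5' end, against the usual direction. Exoc3l4, an exocyst-related gene (chr12:111416601-111424700), had 9.01 and 4.84, and 14.4 and 4.47. Zbtb7a, a zinc finger repressor related to Zbtb7b (chr10:81134101-81142100), had 5.55 and 3.04, and 17.5 and 4.88. The pattern of ApcMin/+ 1 above the others held at all of these.

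Sfi1, which encodes a centrosomal protein, was the exception among the 10 widest. Over chr11:3191301-3200000 its signal was 15.1 and 16.4 in wild type and 8.42 and 12.9 in ApcMin/+, so both ApcMin/+ libraries were lower. Repeat-masked sequence made up 46.4% of this domain, against a median of 10.6% over all domains, and whether reads of other copies of this sequence reach it was not tested.

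**Figure D3:**
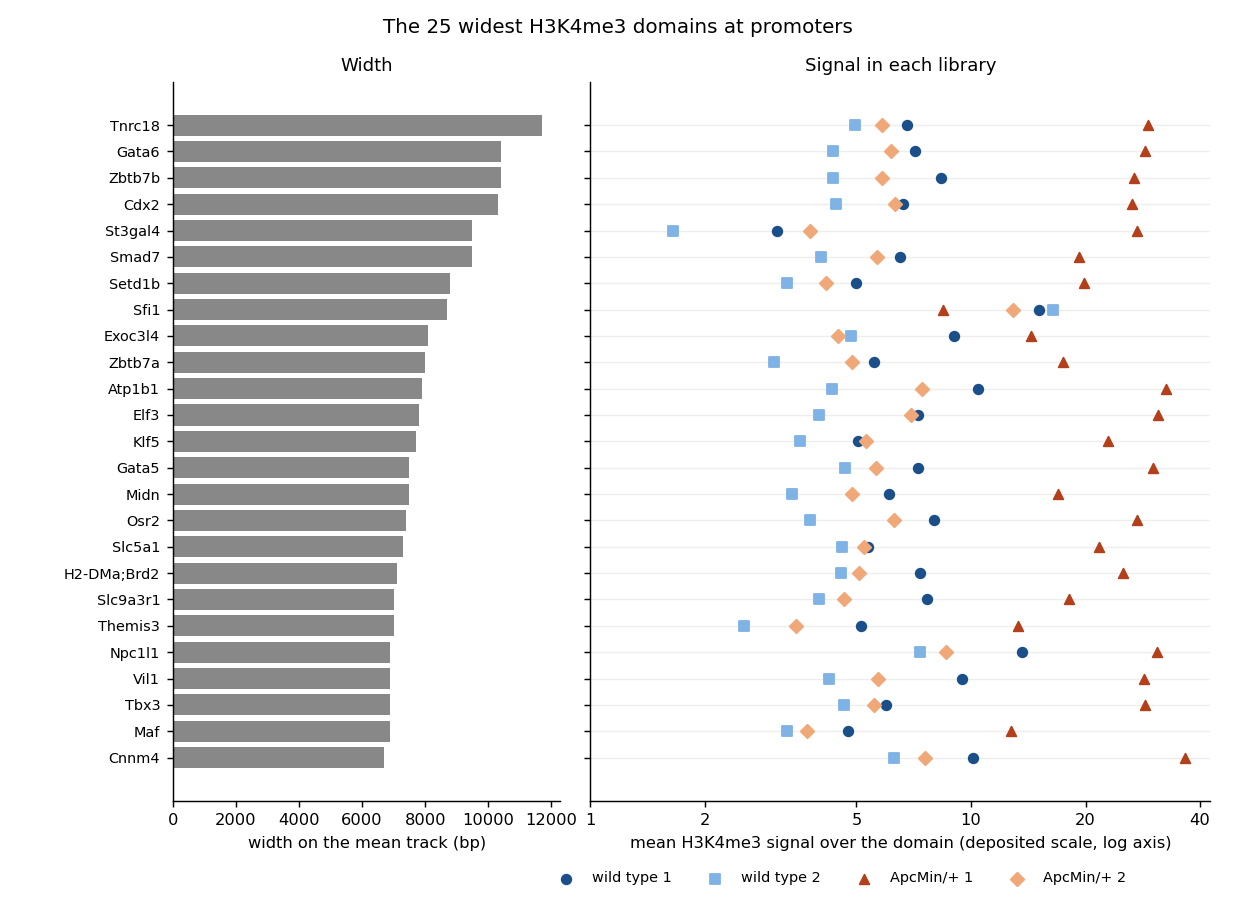
Width on the mean track (bars, bp) and mean H3K4me3 signal in each of the 4 libraries (points, log axis) for the 25 widest domains. ApcMin/+ 1 is the rightmost point everywhere except at Sfi1, and ApcMin/+ 2 mostly lies between or near the wild-type libraries.

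Genes of the enterocyte and of intestinal identity were frequent among the members, and none of the genes listed for other cell types was one. In broad domains lay 15 of 30 enterocyte products, 10 of 25 intestinal transcription factors and 10 of 25 immediate early genes, against 3.70% of all protein-coding genes. Of 25 immune genes, 22 mesenchymal and endothelial genes, 25 factors of other lineages and 20 genes of secretory cells, 0 lay in a broad domain. At a share of 3.70% a list of this size holds few genes or none, so 0 in each is near that share. Of these genes only Cd14, Mitf and Spdef lay in a narrower region. On the average of the 2 ApcMin/+ tracks 1 of the 20 secretory genes, Gfi1, lay in a broad domain, against 5.60% of all genes. All 39 Hox genes lay outside both kinds of region. Without the track of ApcMin/+ 1 the counts were 11 of 30 enterocyte products, 7 of 25 intestinal factors and 7 of 25 immediate early genes, against 1.56% of all genes, and again 0 in the lists of other cell types. These lists were written with earlier results of these data known.

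The intestinal transcription factors in broad domains included Gata6, Cdx2, Elf3, Klf5, Isx, Tcf7l2, Hes1 and Gata4. Another 8, including Cdx1 (2500 bp) and the nuclear receptor genes Hnf4a (2600 bp) and Hnf4g (1800 bp), lay in narrower regions, and 7 in neither. Elf3 (7800 bp) had 7.25 and 3.98 in wild type and 30.9 and 6.95 in ApcMin/+. When the ends of all annotated transcripts were counted in place of 1 end per gene, 14 of 25 lay in a broad domain, Hnf4a, Hnf4g, Vdr and Nr5a2 being added. On the average of the 2 wild-type tracks alone 6 of 25 did, among them Gata6, Cdx2, Elf3 and Gata4.

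Among the enterocyte products the widest domains belonged to Slc5a1, the sodium-glucose transporter (7300 bp, chr5:33104001-33111300), the microvillus protein villin (Vil1, 6900 bp, chr1:74408601-74415500) and the keratin of differentiated cells Krt20 (6500 bp, chr11:99435501-99442000). The Slc5a1 domain had a signal of 5.35 and 4.59 in wild type and 21.8 and 5.23 in ApcMin/+. Vil1 had 9.49 and 4.24, and 28.5 and 5.69. Krt20 had 6.62 and 3.16, and 17.1 and 4.44. At each of these genes the groups overlapped, ApcMin/+ 2 lying within the wild-type range. The others were Cdh17, Ezr, Lct, Krt8, Slc15a1, Cldn3, Cldn7, Apob, Alpi, Mgam, Cdh1 and Slc2a2. They encode adhesion and junction proteins (Cdh17, Cdh1, Cldn3, Cldn7), digestive enzymes (Lct, Mgam, Alpi), transporters (Slc15a1, Slc2a2), a keratin (Krt8), a linker of membrane and cytoskeleton (Ezr) and the apolipoprotein of chylomicrons (Apob, 4200 bp). The other lipid carriers Fabp1, Apoa1 and Apoa4 lay in narrower regions of 2800, 2800 and 2600 bp, just below the minimum. The Epcam region, of 800 bp on the mean track, fell into a broad domain when only the 2 wild-type tracks were averaged. On those tracks 12 of 30 enterocyte products lay in one, and with all transcript ends on the mean track 20 of 30.

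Of the markers set down for each cell type, the enterocyte genes Vil1, Krt20, Alpi and Cdh17 lay in broad domains, Fabp1, Apoa1, Apoa4 and Epcam in narrower regions, and Fabp2 and Sis in neither. The secretory genes Muc2, Tff3, Atoh1, Chga and Dclk1, the crypt genes Lgr5, Olfm4 and Ascl2, the immune genes Ptprc, Cd3e, Cd79a, Cd74 and Spi1 and the mesenchymal genes Col1a1, Vim and Acta2 lay in neither kind. Mki67, a gene of dividing cells, lay in a narrower region of 1800 bp.

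The crypt and Wnt genes with a broad domain were 4 of 20, against 3.70% of all protein-coding genes. Myc (chr15:61984301-61988700) had 1.69 and 2.65 in wild type and 16.0 and 5.64 in ApcMin/+, so the groups did not overlap. Rnf43, a ubiquitin ligase that lowers Wnt receptors (chr11:87662501-87666900), had 4.43 and 3.32, and 27.7 and 4.54, with ApcMin/+ 2 barely above wild type 1. Axin2, a Wnt target and scaffold (chr11:108920101-108923700), had 4.65 and 2.75, and 15.3 and 3.49. The fourth was Sox9, whose domain was exactly at the minimum of 3000 bp. On the average of the 2 wild-type tracks 0 of these 20 genes lay in a broad domain, against 1.52% of all genes there, and on that of the 2 ApcMin/+ tracks 4 did, against 5.60%. Without the track of ApcMin/+ 1 only Myc (1 of 20) did, against 1.56%. All domains numbered 281 and 1038 on these averages, and a difference in the crypt and Wnt genes was not tested.

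Immediate early genes, which are induced within minutes of a stimulus, had domains at Junb, Btg1, Ier2, Mcl1, Jun, Fos, Fosl2, Klf6, Jund and Btg2. Junb, an AP-1 subunit (6300 bp, chr8:84975701-84982000), had 5.48 and 4.03 in wild type and 20.6 and 4.74 in ApcMin/+. Btg1, an antiproliferative gene (6100 bp, chr10:96616301-96622400), had 3.29 and 2.97, and 16.2 and 4.92. Ier2 (5800 bp, chr8:84660001-84665800) had 8.18 and 4.85, and 26.1 and 4.92. Of the 3 only Btg1 had groups that did not overlap.

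Constitutive genes lay mostly in narrower regions. Of 20 housekeeping genes 16 lay in narrower regions and 3 in broad domains, namely the actins Actb (6300 bp) and Actg1 (5500 bp) and Gapdh (4000 bp), a glycolytic enzyme gene. Actb had 8.08 and 3.85 in wild type and 20.3 and 6.02 in ApcMin/+, Actg1 had 6.33 and 3.83, and 16.2 and 4.21, and Gapdh had 7.12 and 3.72, and 21.6 and 5.10. In all of them only ApcMin/+ 1 exceeded wild type 1. Of 83 ribosomal protein genes 68 (81.9%) lay in narrower regions and 2 (2.41%), Rpl18 and Rpl7, in broad domains. In neither kind of region lay 1 housekeeping gene and 13 ribosomal protein genes (15.7%). Of the chromatin regulators 7 of 32 (21.9%) lay in broad domains, against the same 3.70%. Setd1b (8800 bp), Kmt2e (5000 bp) and the co-repressor gene Ncor1 (4200 bp, a domain shared with the end of Pigl) were the widest, followed by Kmt2d, Ep300, Kmt2a and Kmt2b, so that Setd1b and 4 genes of the Kmt2 family made up 5 of the 7. Kmt2e had 9.35 and 6.08 in wild type and 34.0 and 7.55 in ApcMin/+, and the Ncor1 domain had 9.63 and 5.72, and 32.5 and 7.65, so the groups overlapped at both. Without the track of ApcMin/+ 1 broad domains held 1.56% of all genes, 1 of 20 housekeeping genes (Actb) and 2 of 83 ribosomal protein genes. They held 4 of 32 chromatin regulators (Kmt2b, Kmt2d, Kmt2e and Ncor1), Setd1b, Ep300 and Kmt2a being lost.

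**Figure D4:**
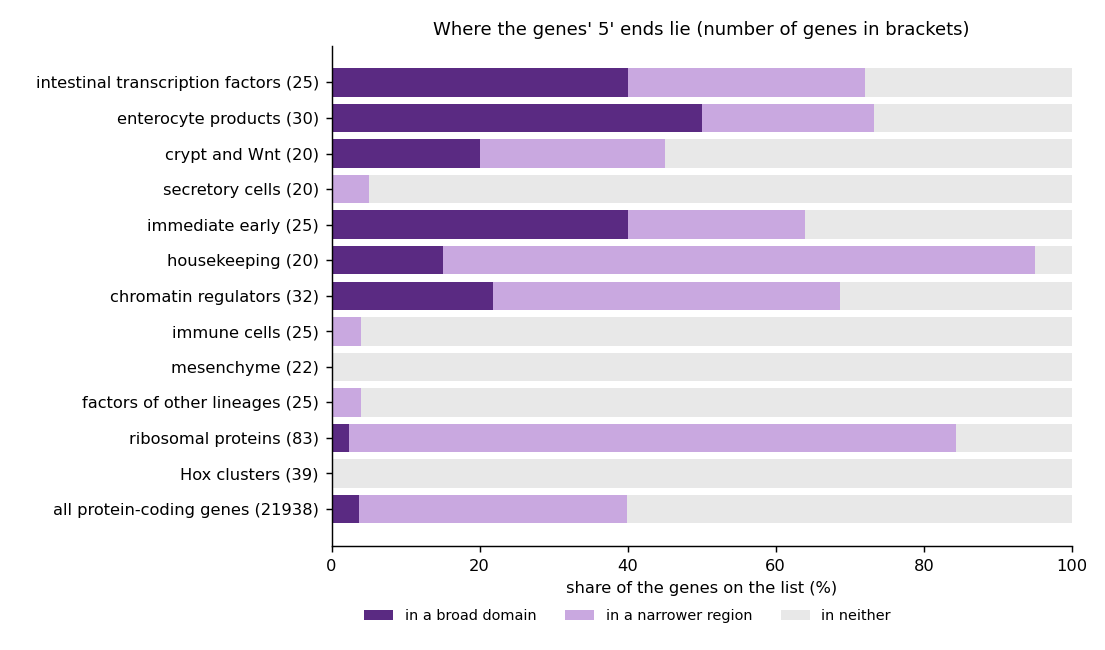
Share (%) of the genes of each list whose 5' end lay in a broad domain, in a narrower region or in neither, with the number of genes in brackets. Of the enterocyte products 15 of 30 and of the intestinal factors 10 of 25 lie in broad domains, whereas housekeeping and ribosomal protein genes lie mostly in narrower regions.

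At the limit of the rule 65 domains were exactly 3000 bp wide and 69 regions with a gene end were 2900 bp wide. Those of highest signal just inside it were Cdk12 (13.2 and 6.61 in wild type, 44.8 and 7.98 in ApcMin/+), Yod1 with Gm29427, and Gtf3c1 with D430042O09Rik. Just outside lay Zc3hav1 (12.3 and 8.003, and 36.7 and 9.16), Fbh1 with Ankrd16, and C2cd2l. The values on both sides were alike.

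Called within each library alone, at 10 times that library's own mean, long regions with a gene end numbered 759 and 184 in wild type and 1570 and 383 in ApcMin/+. Of the 691 domains, 400 and 169 were found again in this way in wild type, and 678 and 324 in ApcMin/+. A total of 103 domains (14.9%) were called in all 4 libraries, 165 in 3, 244 in 2, 176 in 1 and 3 in none. The 103 had a median width of 4400 bp and included Tnrc18, Gata6, Zbtb7b, Cdx2, Elf3, Vil1, Actb, Junb, Ier2 and Kmt2e. The 176 domains found in 1 library had a median of 3400 bp. A median domain rested on 35.7 and 71.7 fragments in wild type and on 314.1 and 110.3 in ApcMin/+, and 70 domains had under 20 fragments in wild type 1.

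The comparison of genotypes asked whether the domains carried more or wider H3K4me3 in ApcMin/+ villi. The same tracks chose the domains, and ApcMin/+ 1 weighed most in that choice, so its high signal and covered width are in part what the rule selected and the tests are not independent of it. Mean signal over the domains was 6.73 and 4.06 in wild type (5.40 ± 1.88, SD, n = 2) and 22.4 and 5.41 in ApcMin/+ (13.9 ± 12.1, n = 2). The groups overlapped, since ApcMin/+ 2 lay between the wild-type libraries, and the log2 ratio of the means was 1.37 (two-sided exact permutation test, p = 0.667, adjusted over 5 comparisons 0.833). Without ApcMin/+ 1 the log2 ratio was 0.0031. With 2 libraries a group the smallest p this test can give is 0.333.

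Covered width, the length of a domain at or above the threshold within a library, averaged 2315 and 1830 bp in wild type (2072 ± 343 bp, n = 2) and 3770 and 2406 bp in ApcMin/+ (3088 ± 965 bp, n = 2). The groups did not overlap, ApcMin/+ being wider by a log2 ratio of 0.58 (exact permutation p = 0.333, adjusted 0.833), and by 0.22 without ApcMin/+ 1. They did overlap at 15 times the mean (1930 and 1278 bp against 3706 and 1901 bp) and over domains called on the 2 wild-type tracks (2689 and 2208 bp against 3560 and 2599 bp), with an exact permutation p of 0.667 in each. The signal of domains relative to narrower regions was 0.948 and 0.905 in wild type (0.926 ± 0.030, n = 2) and 1.13 and 0.865 in ApcMin/+ (0.997 ± 0.186, n = 2), which held the highest and the lowest value (log2 ratio 0.11, exact permutation p = 1.0). Without ApcMin/+ 1 this ratio turned to -0.10. The number of regions called alone likewise went from a log2 ratio of 1.05 (exact permutation p = 0.667, adjusted 0.833) to -0.30 without that library, and to 2.41 without wild type 1.

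The distribution within the domain differed slightly between the groups, and by unequal amounts between the single libraries. Signal within 1000 bp of the 5' end made up 53.4% and 51.0% of the domain signal in wild type (52.2 ± 1.65%, n = 2) and 48.3% and 49.8% in ApcMin/+ (49.02 ± 1.08%, n = 2). Both ApcMin/+ values were lower, the difference of the means being -3.19 percentage points, at the smallest possible p of 0.333 (exact permutation test, adjusted 0.833). The difference was -2.43 percentage points without ApcMin/+ 1, and the groups did not overlap among the 287 domains called without its track either (50.1% and 48.6% against 47.4% and 48.0%). Genotype and other differences between single libraries cannot be told apart here.

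**Figure D5:**
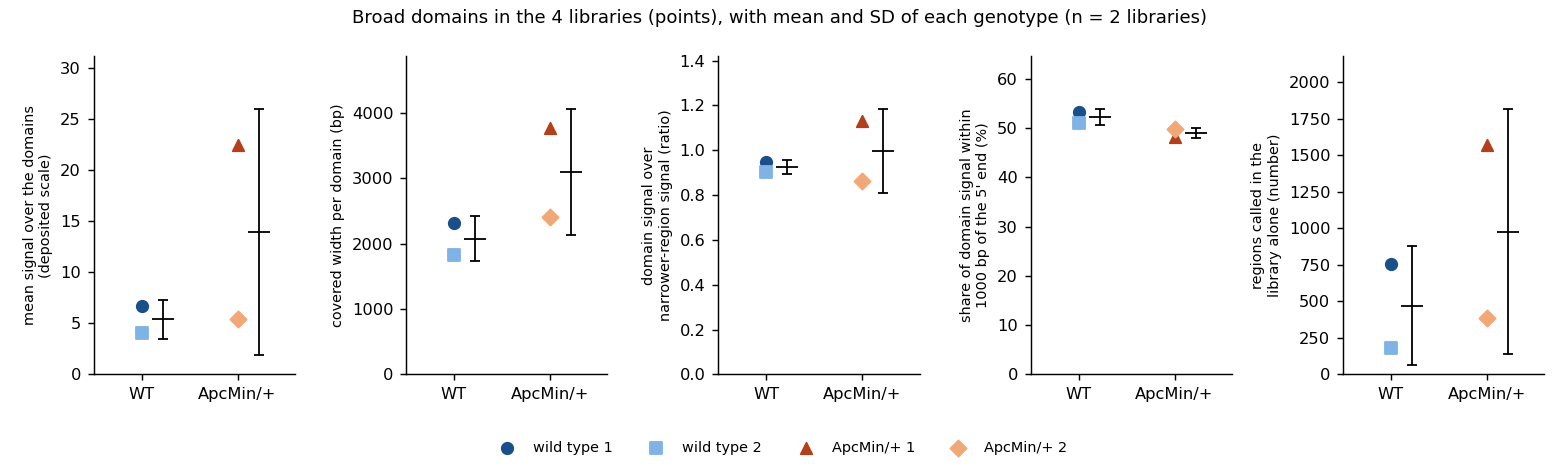
Values of the 5 comparisons in each library (points) with the mean and SD of each genotype (n = 2 libraries), all axes starting at 0. Wild-type and ApcMin/+ points overlap for mean signal, the ratio to narrower regions and the regions called alone, and do not overlap for covered width and the share near the 5' end.

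Region by region, limma called 0 of the 14071 regions (0.0%) and 0 of the 691 domains at an adjusted p under 0.05 on log2(signal + 1), the smallest adjusted p being 0.741. At an unadjusted p under 0.05 there were 262 regions, 9 of them broad domains, and limma without a trend also called 0. The median log2 difference, ApcMin/+ minus wild type, was 0.98 over the domains, 0.90 over narrower regions and 0.87 over all regions. The tracks were already scaled to equal depth, and 93.6% of all regions were higher in ApcMin/+. Without ApcMin/+ 1 the median difference was 0.04 over the domains, 0.14 over narrower regions and 0.13 over all regions. What lies behind the shared shift was not tested. Differences are therefore also given below relative to the median region of each library. On that scale the median was 0.13 over the domains, of which 477 (69.0%) were positive, and 0.05 over narrower regions, of which 56.5% were, against 51.5% of all regions. On it limma again called 0 regions (528 at an unadjusted p under 0.05). By library, the median domain stood 0.11 and 0.02 from the median region in wild type, and 0.42 and -0.0033 from it in ApcMin/+.

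At 157 domains (22.7%) both ApcMin/+ values exceeded both wild-type values on the deposited scale, against 34.7% of all regions, and at 2 domains (0.289%) both were lower, against 1.02%. Relative to the median region the counts were 125 (18.1%) above, against 15.5% of all regions, and 48 (6.95%) below, against 14.9%. Of the narrower regions 17.4% were above and 12.1% below on that scale, and 35.9% and 0.259% as deposited. Since ApcMin/+ 1 weighed most in choosing the domains, the shares of domains describe the members and test nothing. When ApcMin/+ 2 was left out, the median log2 difference as deposited was 1.92 over the domains, against 1.62 over all regions. Without ApcMin/+ 1 it was 0.04 over the domains, against 0.13 over all regions.

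By list, the 10 intestinal factors in broad domains had a median log2 difference of 1.19 as deposited and of 0.34 relative to the median region. On the latter scale 9 of 10 were positive, against 69.0% of all domains. At 6 both ApcMin/+ values exceeded both wild-type values, against 18.1% of all domains. The 15 enterocyte products in broad domains had medians of 0.82 and -0.03, with 5 of 15 positive. At 4 both ApcMin/+ values were below both wild-type values, against 6.95% of all domains. At 0 they were above, against the same 18.1%. The 10 immediate early genes (0.90 and 0.05) and the 7 chromatin regulators (1.01 and 0.16) were near the values of all domains. The 4 crypt and Wnt genes had 1.26 and 0.41, with 4 of 4 positive, against the same 69.0%. Without the track of ApcMin/+ 1 only Myc of these 4 stayed in a broad domain, and the intestinal factors Klf5, Isx and Hes1 dropped out. Positive differences at such genes are in part what the rule selected. No gene of these lists passed the test, since no domain did.

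The largest differences relative to the median region, among domains whose groups did not overlap on that scale, were at Duox2, Oit1 and Gpx2. Duox2 and its maturation factor gene Duoxa2, which together make an epithelial hydrogen peroxide producing oxidase, share a divergent domain at chr2:122295901-122302300. Its signal was 0.981 and 1.10 in wild type and 30.6 and 4.24 in ApcMin/+, a log2 difference of 2.66 ± 0.88 as deposited (SE, limma adjusted p = 0.741) and of 1.81 relative to the median region. Wild type 1 had 9.0 fragments there and the domain was called alone only in ApcMin/+ 1. Oit1 (chr14:8376001-8379000) had 1.63 and 2.15, and 26.7 and 5.36. Gpx2, the glutathione peroxidase of the gut epithelium (chr12:76792901-76795900), had 3.72 and 1.39, and 34.9 and 5.09. Relative to the median region both ApcMin/+ values were higher at each of them by the choice of these domains, and they were higher as deposited too. At Duox2 and Oit1 the signal of both wild-type libraries was below the threshold of the call. The high ApcMin/+ signal there is therefore in part what the rule selected. The log2 differences relative to the median region were 1.81, 1.36 and 1.29. As deposited they were 2.66, 2.21 and 2.14, and 1.36, 1.14 and 0.86 without ApcMin/+ 1.

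In the other direction stood Gm21738, Sfi1 and Aqp1. Gm21738, a predicted gene at chr14:19415801-19419700, had 23.2 and 23.8 in wild type and 7.88 and 19.3 in ApcMin/+, a log2 difference of -0.87 as deposited and of -1.72 relative to the median region, and 83.8% of its domain was repeat-masked. Sfi1, described above, had -0.55 and -1.40. Without ApcMin/+ 1 the deposited differences were -0.27 at both. Aqp1, which encodes a water channel (chr6:55336101-55339600), had 10.1 and 3.81, and 5.55 and 4.27, so its groups overlapped on the deposited scale. Its log2 difference was -0.31 as deposited and -1.16 relative to the median region, and without wild type 1 the deposited one turned to 0.29. Of the Aqp1 domain 4.71% was repeat-masked.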

How the data were processed

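H3K4me3 CUT&RUN libraries of 2 wild-type and 2 ApcMin/+ mice were used, and all other samples are not analysed here. Per the study's methods and the labels, the authors trimmed read pairs, aligned them to mm10 with Bowtie2, removed duplicates with Picard and low-quality alignments with samtools, and kept fragments of nucleosome size. The deposited signal is HOMER coverage per base, normalized by the authors to 10000000 tags and to the mean fragment length, per library and without subtracting a no-antibody control. Count models do not suit it, and fragments per region were obtained from the summed signal and the stated tags.

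Signal was averaged in 100 bp bins, with gene ends from GENCODE M21 and sequence from RefSeq's GRCm38 assembly. Promoter windows ran from 250 bp before the 5' end. Two-sided exact permutation tests compared library values, with Benjamini-Hochberg adjustment over 5 comparisons, and all 14071 regions with limma 3.58.1 (R 4.3.3, trend, pseudocount 1, adjusted p under 0.05). Python 3.11.15 with scipy 1.17.1, numpy 2.4.6, pysam 0.24.0 and pandas 2.3.3 served for the rest. Labels give no litter or day, so p-values measure the spread between 2 libraries a group.

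The members and lists were chosen with earlier results of these data known. The text names the genes of the 10 widest domains, the 3 widest of each list, the 3 largest differences in each direction relative to the median region among domains whose groups do not overlap, the 3 domains and 3 regions nearest the minimum width with the highest signal, and the domain with most gene ends. Some members of the lists are counted but not reported here by name. Alternatives were other thresholds, gaps, minimum lengths, weights of the tracks, transcript ends, scalings, pseudocounts and filters, a replicate block and leaving out each library. Averages over the 2 wild-type or the 2 ApcMin/+ tracks alone were added after seeing the data.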

Additional observations from a re-analysis of the deposited data

How the results depend on the processing

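The number of domains depended on the rule. It was 350 at 15 times the mean, 356 with gaps of 200 bp joined, 2125 and 278 with minimum lengths of 2000 and 4000 bp, 414 with libraries scaled to their mean over enriched regions, 287 without the track of ApcMin/+ 1, and 281 and 1038 on the average of the 2 wild-type or the 2 ApcMin/+ tracks. It was within 1.5 times of 691 under the other 4 alternatives. Leaving out 1 library moved the log2 ratio of domain signal between 0.0031 and 2.06, that of covered width between 0.22 and 0.86, that of domain over narrower-region signal between -0.10 and 0.28, that of regions called alone between -0.30 and 2.41, and the share near the 5' end between -4.36 and -2.03 percentage points. The reversals, -0.10 and -0.30, came without ApcMin/+ 1, and the cause was not tested. With a replicate block, the mean of the differences within replicate numbers, the values were 1.08, 0.55, 0.09 and 1.05 on the log2 scale and -3.19 percentage points, and limma called 2 regions and 0 domains. Deviations of same-numbered libraries had a correlation of -0.06 over the regions, and the labels tie the numbers to nothing else. Leaving out 1 library gave 0 to 4135 regions and 0 to 361 domains, 1 region without wild type 1 and the highest counts without ApcMin/+ 2. The log2 difference at Aqp1 ranged from -0.91 to 0.29 when 1 library was left out, turning positive without wild type 1, and was -1.16 with centring. Quantile normalization, centring, pseudocounts of 0.1 and 5 and a filter of 20 fragments gave 0 calls. Depth limits wild type 1 most.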
